A study of Mus musculus with 2 samples.

Results

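The myosin binding proteins and the myomesins are 2 small families of the muscle sarcomere, and their 8 mouse genes are described here in the gastrocnemius, the large calf muscle. Members were matched by gene symbol, and no measured value enters the matching: Mybpc1, Mybpc2, Mybpc3, Mybph and Mybphl form the myosin binding proteins, and Myom1, Myom2 and Myom3 the myomesins. They are 8 of 55536 named genes in the deposited tables. The series holds 1 group of 2 total RNA libraries from the gastrocnemius of female B6CASTF1/J mice aged 10 days. These are hybrids of a C57BL/6J and a CAST/EiJ parent, and no treatment or added allele is given in the labels. Ribosomal RNA was reduced, ERCC spike-ins were added and each library started from 300 ng of RNA. The replicates are labelled biological replicates 1 and 2 and are separate biosamples under the same donor label. Whether a biosample is 1 animal is left unsaid, so the SD may not measure spread between animals. With 1 group there is no contrast between conditions, and 2 libraries cannot give a two-sided sign-flip p below 0.5. Values are therefore given for each library or as mean ± SD, and none of them carries a test.

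Thick filaments of striated muscle are bundles of myosin. The myosin binding proteins C lie in stripes on either side of the middle of the filament, where they bind the myosin rod, the myosin heads and actin and slow the cycling of crossbridges. Mybpc1 encodes the slow skeletal form, Mybpc2 the fast skeletal form and Mybpc3 the cardiac form. The slow form is known to occur in fast fibres too. Mybph (myosin binding protein H) and Mybphl (its relative in heart atria) are shorter proteins of the same family. Myomesins are the crosslinks of the M-band, the line at the middle of the sarcomere where thick filaments and titin are tied together. Myom1 encodes the myomesin of all striated muscle, Myom2 the M-protein of fast fibres and heart, and Myom3 a form known from intermediate fibres.

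Named genes held 35666448 expected counts in replicate 1 and 39650328 in replicate 2, and the 8 members together held 257238 and 345113. The tissue label was checked against markers. All 10 markers of skeletal muscle fibres were detected at 1 TPM (a transcript level per length, relative to all transcripts of the library) or more in both libraries, led by Acta1, Mylpf and Ckm. All 9 slow fibre markers were also detected, led by Myl2, Myh7 and Tnnt1, with a summed level of 1437 and 1378 TPM in replicates 1 and 2. Replicate 1 stood apart by bone and neutrophil genes. The 8 bone and cartilage markers summed to 263.4 TPM there and 13.96 in replicate 2, and 6 neutrophil markers to 54.1 and 0.62. Among the 8, the cartilage genes Col2a1 (14.74 and 11.52 TPM) and Acan (2.24 and 1.54 TPM) differed by less than 2-fold. In bulk tissue, fewer cells of a type and less RNA per cell cannot be told apart.

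Of the 8 members, 6 reached 1 TPM in both libraries, against a background of 52.3% of 22015 nuclear protein coding genes. Mybpc2 had the highest level, at 982.46 TPM in replicate 1 and 1397.29 in replicate 2. It ranked 31 among the nuclear protein coding genes by mean TPM. Mybpc1 followed at 588.83 and 498.31 TPM (rank 69). Myom1, at 448.38 and 465.52 TPM (rank 89), and Myom2, at 360.96 and 395.31 TPM (rank 122), lay close behind. Mybph stood at 90.25 and 184.03 TPM (rank 408). Myom3 was lowest of the detected members at 26.45 and 23.15 TPM (rank 2419). The order of these 6 was the same in both libraries, and in the RSEM-format tables no neighbours in the order overlapped. The kallisto-format tables gave higher levels for the detected members and the same order, with Mybpc2 at 1286 and 1735 TPM. Myom1 and Myom2 were the closest neighbours, at 516.8 and 513.7 against 489.9 and 511.4 TPM in those tables. Their order did not hold in every table, as described with their transcripts.

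**Figure D1:**
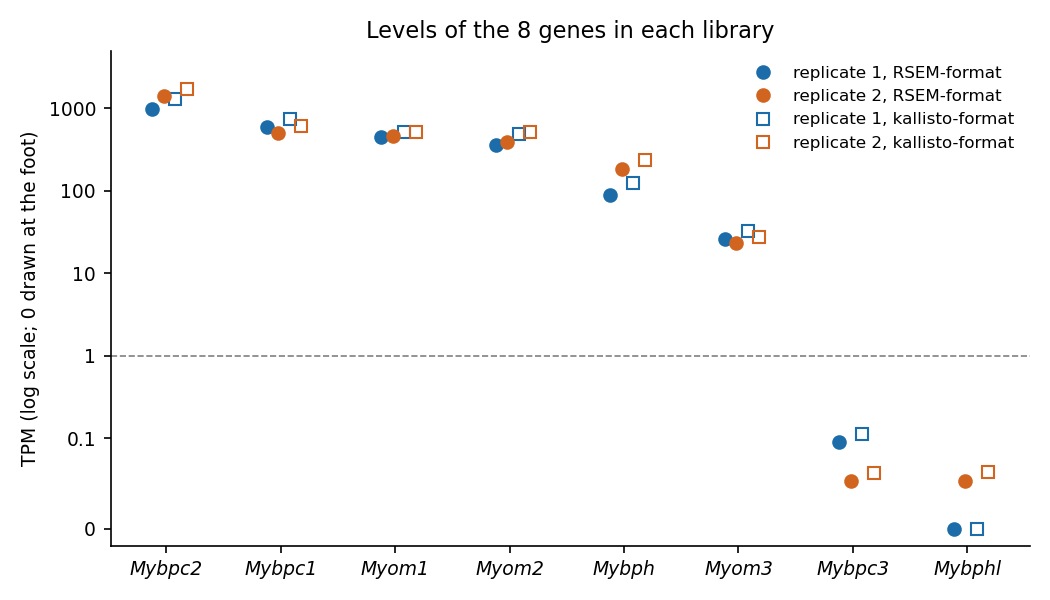
Level of each gene in TPM on a log axis, ordered by mean, with filled circles for the RSEM-format gene tables, open squares for the kallisto-format tables and colours for replicates 1 and 2; the dashed line is 1 TPM. The 6 detected genes sit between 23.15 and 1735 TPM in all 4 readings, while Mybpc3 and Mybphl sit near 0.

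Mybpc3 and Mybphl, the members known mainly from heart, were near the limit of counting. Mybpc3, the cardiac myosin binding protein C, had 10 expected counts in replicate 1 and 4 in replicate 2, or 0.09 and 0.03 TPM. Its level was 10916-fold below that of Mybpc2 in replicate 1 and 46576-fold below it in replicate 2, on 10 and 4 counts. Mybphl had 0 counts in replicate 1 and 1 in replicate 2. A count of 0 allows up to 3 counts, which puts Mybphl at least 998.4-fold below Mybph in replicate 1. In replicate 2 the ratio was 6948-fold, with an exact Poisson interval of 1247 to 274431 at 95%, for counting error alone. Among 13 cardiac markers, Myl7, Nppb and Nkx2-5 were at 0 counts in both libraries. The 4 that reached 1 TPM in both libraries, Sln named after its values were seen, were Myh6 (47.31 and 37.27 TPM), Tnnt2, Myl4 and Sln. Myh6 was lower in the kallisto-format tables, at 25.7 and 19.01 TPM. Tnnt2 and Myl4 are also on the list of embryonic and perinatal muscle genes used here.

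The genes lie on different chromosomes of the mm10 build, as GENCODE M21 places them. Mybpc2 (ENSMUSG00000038670.11) is at chr7:44501699-44524656 on the minus strand and Mybpc1 (ENSMUSG00000020061.17) at chr10:88518279-88605152 on the minus strand. Mybph (ENSMUSG00000042451.12) is at chr1:134193448-134201232, Mybpc3 (ENSMUSG00000002100.15) at chr2:91118144-91136516 and Mybphl (ENSMUSG00000068745.6) at chr3:108364911-108380057, all on the plus strand. Myom1 (ENSMUSG00000024049.15) is at chr17:71002633-71126856, Myom2 (ENSMUSG00000031461.4) at chr8:15057653-15133541 and Myom3 (ENSMUSG00000037139.15) at chr4:135759715-135815564, also on the plus strand. Some loci overlap other genes. The 3′ part of Mybph shares 2010 bases with the antisense gene Adora1, which had 51 and 55 counts against 4449 and 10289 for Mybph. The first 246 bases of Myom1 overlap antisense Myl12a, which had 7242 and 7926 counts. The labels name a stranded spike-in profile, but whether counting used strand is not given in the sources used here.

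Within the myosin binding proteins, the fast form held most of the RNA and the cardiac form almost none. Mybpc2 took 59.13% of the family's TPM in replicate 1 and 67.19% in replicate 2 (63.16% ± 5.7, SD, n = 2). Mybpc1 took 35.44% and 23.96% (29.7% ± 8.115). Mybph took 5.431% and 8.849% (7.14% ± 2.417). For each of these genes the libraries differed, but their ranges did not overlap with one another. Replicate 2 had the larger shares of Mybpc2 and Mybph, and replicate 1 the larger share of Mybpc1.

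The slow to fast ratio of myosin binding protein C was nearer to parity than in 9 other slow and fast pairs. The log2 ratio of Mybpc1 over Mybpc2 in TPM was -0.74 in replicate 1 and -1.49 in replicate 2 (-1.11 ± 0.53), so the slow form was 1.668-fold and 2.804-fold lower. The other pairs set each of the 9 slow fibre markers over a fast partner gene, and they were chosen after values were seen. Their mean log2 ratio lay between -6.48 (Myl3 over Myl1) and -4.48 (Casq2 over Casq1, the calsequestrins). The myosin heavy chain pair Myh7 over Myh4 was 34.92-fold and 43.35-fold lower on the slow side. The troponin I pair Tnni1 over Tnni2 was 52.7-fold and 66.39-fold lower. The calcium pump pair Atp2a2 over Atp2a1 was 62.47-fold and 74.55-fold lower. In both libraries the Mybpc1 over Mybpc2 ratio lay above all 9 of these pairs, and no test was possible with 2 libraries. All 10 ratios were lower in replicate 2 than in replicate 1.

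Mybph was below both abundant forms of myosin binding protein C in both libraries. Its log2 ratio to Mybpc2 was -3.44 in replicate 1 and -2.93 in replicate 2 (-3.19 ± 0.37). Its log2 ratio to Mybpc1 was -2.71 and -1.44 (-2.07 ± 0.90), so it was 6.524-fold lower in replicate 1 and 2.708-fold lower in replicate 2.

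The myomesins fell into a pair at similar levels and a minor form. Myom1 held 53.65% and 52.66% of the family's TPM (53.15% ± 0.6969) and Myom2 43.19% and 44.72% (43.95% ± 1.083). Myom3 held 3.165% and 2.619% (2.892% ± 0.386). The log2 ratio of Myom2 over Myom1 was -0.31 and -0.24 (-0.27 ± 0.05) over all annotated transcripts. Myom3 was 16.95-fold and 20.11-fold below Myom1, and 13.65-fold and 17.08-fold below Myom2. Each of these shares differed by less than 2 percentage points between the libraries, a narrower gap than for Mybpc1 or Mybpc2.

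**Figure D2:**
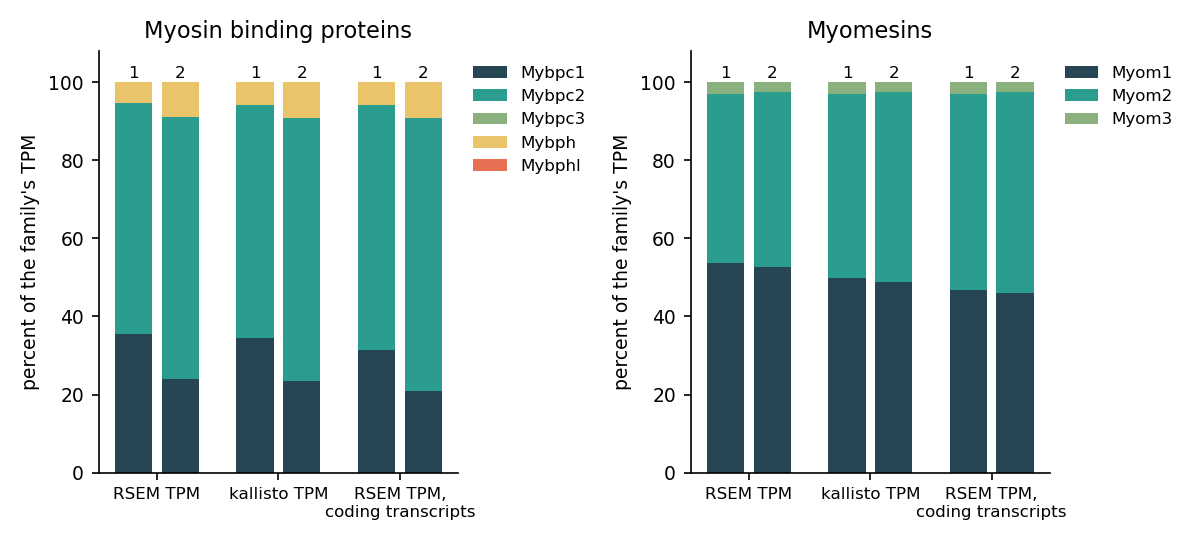
Percent of each family's summed TPM held by each member, as stacked bars from 0 to 100 for replicates 1 and 2 (numbers above the bars), from the RSEM-format tables, the kallisto-format tables and the RSEM-format tables with coding transcripts alone. Mybpc2 is the main part of the first family in all 6 bars, and the bars of Myom1 and Myom2 are nearly level, with Myom1 at 53.15% over all transcripts and 46.37% over coding transcripts.

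Both families were set beside the filament they bind. Summed over 9 sarcomeric myosin heavy chain genes, the heavy chains had 11794 and 13497 TPM. Per 100 TPM of these, the myosin binding proteins had 14.09 and 15.41 TPM (14.75 ± 0.9335) and the myomesins 7.087 and 6.55 TPM (6.818 ± 0.3797). The summed myosin binding proteins stood at 0.7807 and 1.044 of the TPM of Ttn, which encodes titin, and the summed myomesins at 0.3927 and 0.4437. Ttn itself had 2128.52 and 1992.27 TPM. The ratio to heavy chain RNA was higher in replicate 2 for the binding proteins and lower in replicate 2 for the myomesins.

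The 31 annotated transcripts of the members show which forms carried these levels. Shares are percent of a gene's TPM, as a model divided the reads, and are not counts of reads across splice junctions. Mybpc2 came from 1 transcript, Mybpc2-201, at 100% in both libraries. Mybph-201 held 96.08% and 97.16% of Mybph, and Myom2-201 held 95.14% and 96.78% of Myom2. Mybpc1, Myom1 and Myom3 were divided among more forms. The kallisto-format tables named the same leading transcript for each of these 6 genes.

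Mybpc1 was made as a major and a minor full-length coding form. Mybpc1-202 (29 exons, 1124 codons) held 53.5% and 56.93% of the gene's TPM, and Mybpc1-201 (29 exons, 1127 codons) held 24.37% and 22.31%. In the kallisto-format tables these were 63.14% and 65.3%, and 24.7% and 20.86%. Mybpc1-206 is annotated as coding over all of its 1876 bases, with no untranslated sequence, and so as part of a transcript. It held 3.84% and 3.56%, and 7.177% and 7.2% in the kallisto-format tables. Mybpc1-203, a retained intron transcript of 600 bases, held 10.1% and 10.04% of RSEM-format TPM but 1.056% and 0.7129% of kallisto-format TPM. The retained intron transcript Mybpc1-204 held 6.61% and 5.33%, and 3.006% and 5.026%. The leading order of the coding forms was the same in both libraries and both kinds of table.

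The full-length forms of Mybpc1 differ by 2 cassette exons, whose sequences show the choice. They are read from the GENCODE M21 transcripts, which hold the C57BL/6J reference and not the CAST/EiJ allele, with no base capitalised. The 42-base exon, exon 3 of Mybpc1-202, lies at chr10:88582007-88582048 and is skipped by Mybpc1-201. The 59-base exon, exon 27 of Mybpc1-201, lies at chr10:88521277-88521335 and is skipped by Mybpc1-202. A 54-base exon at chr10:88537466-88537519, exon 9 of Mybpc1-206, was chosen after its values were seen. All are coding exons on the minus strand, in mm10.
Mybpc1 exon of 42 bases: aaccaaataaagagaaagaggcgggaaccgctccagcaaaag
Mybpc1 exon of 59 bases: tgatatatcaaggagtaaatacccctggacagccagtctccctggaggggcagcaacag
Mybpc1 exon of 54 bases: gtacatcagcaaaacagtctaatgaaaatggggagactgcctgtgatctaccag

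The 42-base exon keeps the reading frame and was in most Mybpc1 RNA. Its inclusion, the TPM of transcripts that hold it as a percent of the TPM of coding or other transcripts that span its place, was 68.7% in replicate 1 and 71.84% in replicate 2 (70.27% ± 2.221). The 59-base exon is not a multiple of 3 and shifts the frame near the end of the coding sequence. Its inclusion was 27.22% and 24.49% (25.85% ± 1.927). These values are tied, since Mybpc1-201 carries the exon that Mybpc1-202 lacks and the reverse. The 54-base exon, also in frame, had an inclusion of 4.704% and 4.295%, and of 7.553% and 7.712% in the kallisto-format tables. A 43-base exon that holds the end of the coding sequence, at chr10:88519901-88519943, was included at 86.96% and 86.98%. With the kallisto-format tables the inclusion of this exon was 97.8% and 98.16%.

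For Myom1 the kinds of table disagreed on how much RNA was coding. Myom1-203 (37 exons, 1569 codons) was the leading transcript at 63.56% and 68.49% of RSEM-format TPM and 65.15% and 72.11% of kallisto-format TPM. Myom1-208, a processed transcript of 941 bases with no coding sequence, held 26.08% and 25.07% in the RSEM-format tables. It was at or near 0% in the kallisto-format tables. By expected counts it held only 5.466% and 5.144% of the gene, since TPM divides by length. Myom1-201 held 6.17% and 3.61% in the RSEM-format tables and 19.8% and 15.92% in the kallisto-format tables. Myom1-209, the coding form whose start overlaps Myl12a, held 0.15% and 0.11%, and 8.15% and 7.212%. All noncoding classes together held 27.5% ± 1.871 of Myom1 by RSEM-format TPM and 2.493% ± 1.293 by kallisto-format TPM.

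The order of Myom1 and Myom2 changed with the transcripts counted. With full-length coding transcripts alone (Myom1-201, Myom1-202 and Myom1-203 against Myom2-201, a comparison added after the data were seen), Myom1 had 318.5 and 343.2 TPM and Myom2 343.4 and 382.6 TPM. The log2 ratio of Myom2 over Myom1 was then 0.11 and 0.16 (0.13 ± 0.03), the reverse of the ratio over all transcripts. The kallisto-format tables gave 457.0 and 468.5 TPM for full-length Myom1 and 454.0 and 483.3 TPM for Myom2-201, with ratios on both sides of 0. The levels of Myom1 and Myom2 were close under each of these readings, and no fixed order between them could be given.

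Myom3 showed the same kind of difference at a lower level. Myom3-201 (37 exons, 1439 codons) held 80.34% and 84.78% of RSEM-format TPM and 97.42% and 100% of kallisto-format TPM. The retained intron transcript Myom3-203 held 19.03% and 14.88% of RSEM-format TPM, and 2.579% and 0% of kallisto-format TPM. In Myom2 the retained intron transcript Myom2-202 went the other way, with 2.54% and 1.42% against 7.326% and 5.494%.

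**Figure D3:**
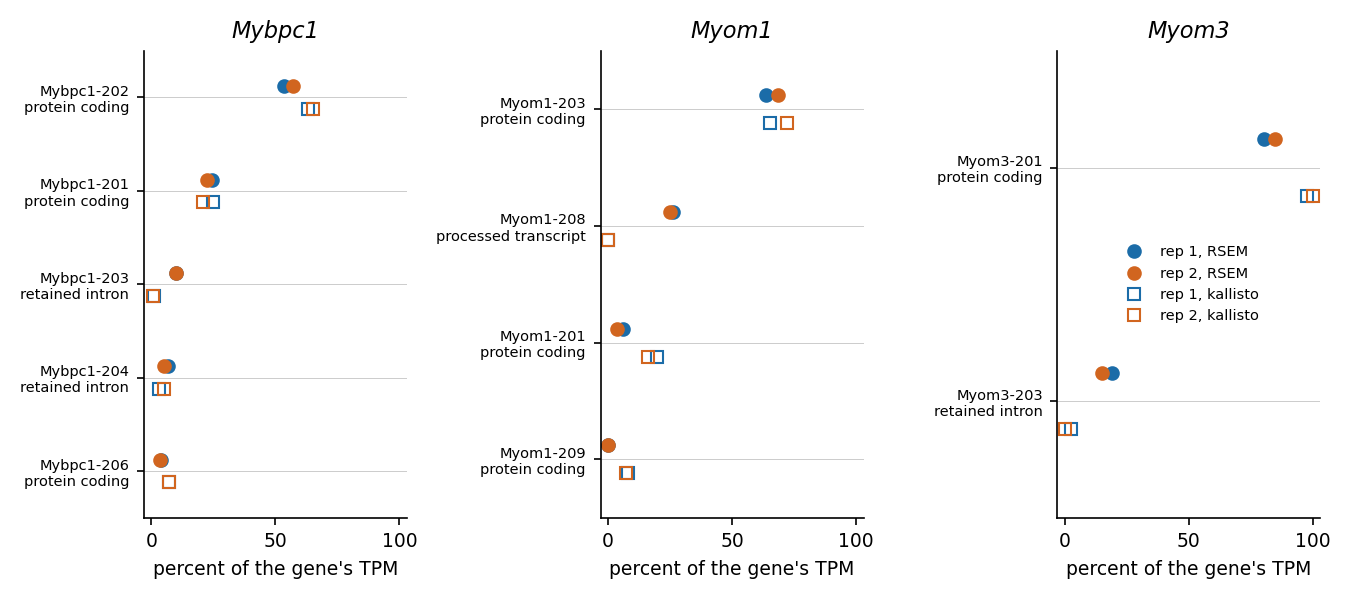
Percent of gene TPM held by each transcript of Mybpc1, Myom1 and Myom3 that has at least 5% in a library or kind of table, with filled circles for RSEM-format and open squares for kallisto-format values and colours for replicates 1 and 2. The leading transcript is the same in both kinds of table, while Myom1-208 sits at 26.08% and 25.07% in one and at 0% in the other.

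Myom1 has a pair of exclusive exons near its 3′ end and a long cassette exon in its middle. The 23-base exon A at chr17:71120794-71120816 is exon 35 of Myom1-201. The 23-base exon B at chr17:71121126-71121148 is exon 36 of Myom1-202 and is also in Myom1-203. The 294-base exon at chr17:71082203-71082496, exon 18 of Myom1-202, was chosen after its values were seen. Inclusion of a segment in the middle of myomesin is known to make the EH form, named for the embryonic heart. All 3 are coding exons on the plus strand, from the same reference transcripts, and capitals mark the positions at which exons A and B differ.
Myom1 exon A of 23 bases: GAaGAGCCcACttgACACTGTTa
Myom1 exon B of 23 bases: ACaAGCTGcCAttgCTGAAAAAa
Myom1 exon of 294 bases: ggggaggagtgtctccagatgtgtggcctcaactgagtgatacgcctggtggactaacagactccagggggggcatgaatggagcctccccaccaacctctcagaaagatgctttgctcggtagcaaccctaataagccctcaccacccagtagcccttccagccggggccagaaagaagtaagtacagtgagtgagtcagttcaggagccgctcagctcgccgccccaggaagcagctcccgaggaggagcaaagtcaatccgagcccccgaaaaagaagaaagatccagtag

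Exons A and B have the same length and were identical at 6 of 23 positions, so the exchange keeps the frame and changes the protein sequence there. Exon B was in nearly all Myom1 RNA of the RSEM-format tables, at 93.64% and 96.35% (94.99% ± 1.915). Exon A was included at 8.694% and 4.893% (6.793% ± 2.688). In the kallisto-format tables exon B was at 80.08% and exon A at 19.92% as means of both libraries. The shares of A and B need not add to 100% in the RSEM-format values, because Myom1-208 holds exon B and begins after the place of A. The 294-base exon, which keeps the frame, was included at 1.824% and 2.197% in the RSEM-format tables (2.011% ± 0.2637) and 3.714% in the kallisto-format tables as a mean. Under both kinds of table, nearly all full-length Myom1 RNA of this muscle skipped it.

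**Figure D4:**
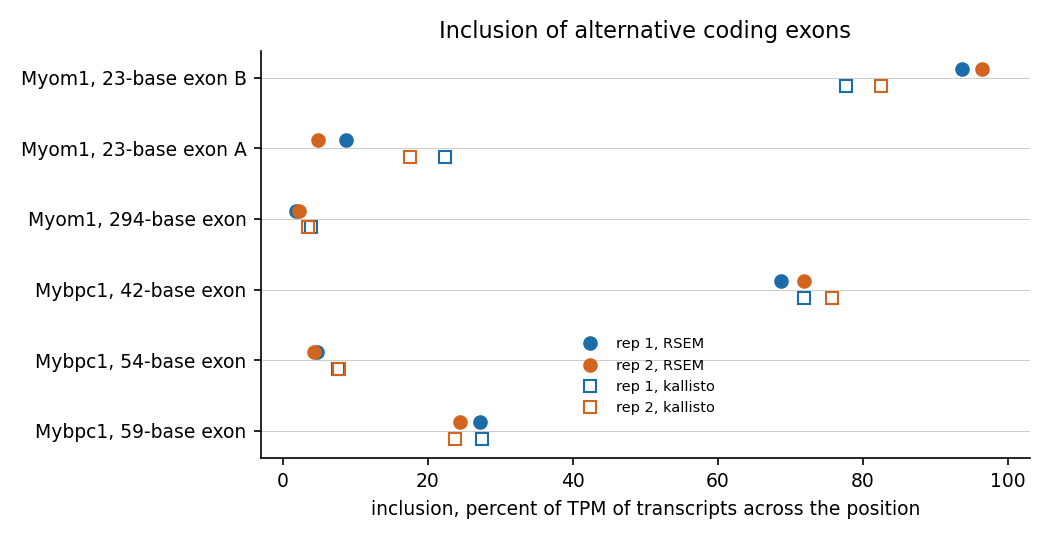
Inclusion of 6 alternative coding exons of Mybpc1 and Myom1, in percent of the TPM of transcripts across the exon's place, with filled circles for RSEM-format and open squares for kallisto-format values and colours for replicates 1 and 2. The 42-base exon of Mybpc1 and exon B of Myom1 sit high, the 294-base exon of Myom1 and the 54-base exon of Mybpc1 sit below 10%, and exons A and B lie closer together in the kallisto-format values.

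The replicates were then compared gene by gene, as the log2 ratio of replicate 2 over replicate 1 in TMM-scaled counts. Among the 6 members whose mean count reached 100, 1 passed 2-fold: Mybph, higher in replicate 2. Of all 11760 genes with such a count, 1.02% passed 2-fold in either direction and 0.213% were higher in replicate 2. Mybph had 4449 counts in replicate 1 and 10289 in replicate 2, a log2 ratio of 1.30, or 2.462-fold. The interval for counting error alone was 1.249 to 1.351 on the log2 scale. It ranked 15 among these genes by this ratio. Mybpc2, at 97295 and 157411 counts, had a log2 ratio of 0.78 (1.722-fold) and ranked 61. It lay above the range that holds 95% of these genes, -0.59 to 0.56. Each value is 1 library against 1, so none of them has a replicate check.

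The other members lay within that range. Myom2 had a log2 ratio of 0.42, Myom1 of 0.36, Myom3 of 0.12 and Mybpc1 of 0.06. All 6 were above 0, as were 62.69% of all genes tested, with a median of 0.39 against 0.08 for all genes. This direction depended on the scaling. With library totals, which shift every gene by -0.24, 4 of 6 were above 0 (26.07% of all genes). With spike-in totals, which shift them by -0.39, 3 of 6 were (9.821% of all genes). Mybph was then at 1.06 and 0.91, and Mybpc2 at 0.54 and 0.39. A scaling shifts all genes alike, so the distances between members stay: Mybpc2 was higher relative to Mybpc1 in replicate 2 whichever scaling was used.

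**Figure D5:**
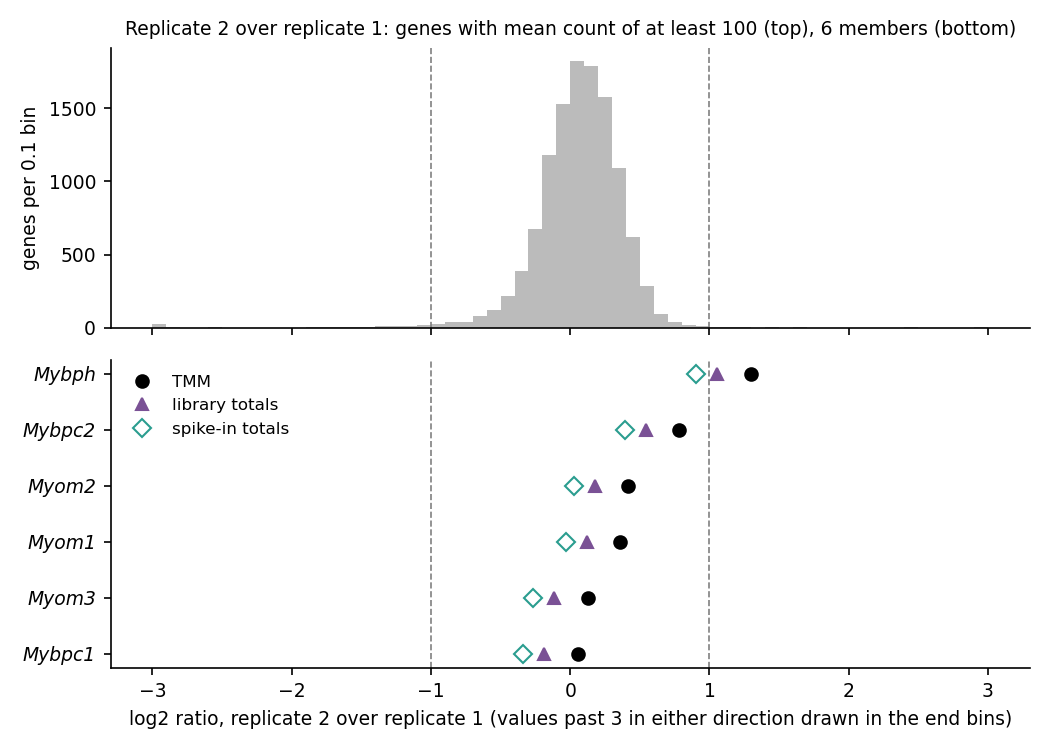
Top, number of genes by log2 ratio of replicate 2 over replicate 1 (TMM scaling, genes whose mean count reaches 100, bins of 0.1, values past 3 drawn in the end bins). Bottom, the same ratio for 6 members under 3 scalings, with dashed lines at 2-fold; Mybph is past the line with TMM (1.30) and library totals (1.06) but not with spike-in totals (0.91).

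Other groups of genes moved with replicate as well, and their part in the ratios of Mybph and Mybpc2 was not tested. The 10 skeletal fibre markers had a median log2 ratio of 0.50 and were all above 0, Myh4, the heavy chain of the fastest fibres, among them at 0.65 (7651.89 and 9945.66 TPM). The 9 slow fibre markers had a median of 0.18. Of 9 embryonic and perinatal genes, Actc1, the cardiac actin of developing muscle, passed 2-fold at 1.19, while Myh8, the perinatal heavy chain, was at -0.42 and the median of the 8 with enough counts was -0.10. Among 11 immediate early genes, Nr4a1 (1.43), Per1 (1.29) and Sgk1 (1.43) passed 2-fold, while the median of the 10 with enough counts was 0.18 and 3 of them lay below 0. None of the 8 denervation response genes with enough counts did, and their median was 0.07. The 6 bone genes Ibsp, Bglap, Spp1, Sp7, Runx2 and Mmp13 and the 3 neutrophil genes Ngp, S100a8 and S100a9 were over 2-fold lower in replicate 2.

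A list of 25 genes was drawn up as partners of both families on the thick filament and the M-band. Whether each gene's protein lies there in this muscle was not tested. All 25 were detected in both libraries, against 52.3% of nuclear protein coding genes. None passed 2-fold between replicates, but only 1.02% of all genes tested did, so this sets them apart from other genes in no way. Their median log2 ratio was 0.33, and 25 of 25 lay above 0 with TMM, as did 62.69% of all genes tested. With spike-in totals, which lower every gene alike, 8 of 25 did, and 9.821% of all genes. The leading 3 by TPM were Ckm (9946.58 and 12092.59 TPM), the muscle creatine kinase that binds the M-band, and the glycolytic enzymes Aldoa and Eno3. The myomesins, at 0.42, 0.36 and 0.12, lay among these partners in their replicate ratios. Mybph lay above all of the partners, and Mybpc2 (0.784) barely above the highest, Trim63 (0.782). Mybpc1 (0.056) lay just below the lowest, Hsp90aa1 (0.069).

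Upstream sequence of the highest, the most variable and the cardiac myosin binding protein is shown for their contrast in level. RefSeq starts were matched for 7 of the 8 members, Myom2 being the exception, and the windows are the 250 bases before each start in GRCm38.p6. Capitals mark matches on either strand to the E-box CANNTG, the MEF2 motif CTANNNNTAG and the MCAT motif CATTCC, which are motifs known from muscle genes. The window of Mybpc2 is chr7:44524670-44524919 on the minus strand, that of Mybph chr1:134193198-134193447 and that of Mybpc3 chr2:91117894-91118143, both on the plus strand.
Mybpc2: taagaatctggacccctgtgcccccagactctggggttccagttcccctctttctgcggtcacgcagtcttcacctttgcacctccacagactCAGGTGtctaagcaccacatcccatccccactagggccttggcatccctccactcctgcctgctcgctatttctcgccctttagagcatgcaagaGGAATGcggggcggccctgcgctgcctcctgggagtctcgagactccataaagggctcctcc
Mybph: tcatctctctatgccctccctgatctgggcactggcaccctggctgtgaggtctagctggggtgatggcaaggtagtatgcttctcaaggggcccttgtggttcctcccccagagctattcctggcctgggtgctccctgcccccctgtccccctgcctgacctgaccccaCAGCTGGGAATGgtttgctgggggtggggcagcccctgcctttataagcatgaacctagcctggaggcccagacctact
Mybpc3: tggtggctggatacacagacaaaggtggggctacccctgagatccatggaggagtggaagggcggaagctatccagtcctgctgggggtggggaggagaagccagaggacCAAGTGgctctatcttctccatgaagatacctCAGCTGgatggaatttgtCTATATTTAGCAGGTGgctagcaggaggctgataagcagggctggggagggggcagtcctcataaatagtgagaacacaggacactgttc

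These matches describe letters and say nothing of binding. An E-box was found in 6 of 7 members and in 66.22% of 32851 windows of that length. MCAT letters were found in Mybpc2, from position -62 counted from the start, in Mybph, from position -73 and directly after an E-box, and in 12.64% of all windows. MEF2 letters were found in Mybpc3 alone, next to an E-box, and in 3.202% of all windows. The TATA letters TATAAA, searched on both strands, were found in Mybph as their reverse complement alone, and on either strand in 12.37% of all windows. With these exact letters, Mybpc3, at 10 and 4 counts, was the only one of the 7 with both MEF2 and E-box letters. The windows of Myom3 and Myom1, both detected genes, hold ctatatttaa and ctatatttat. Each differs from the MEF2 letters in its last base alone. The Myom3 window also has an E-box, from position -142, and the Myom1 window has 3. Looser forms of the motif were not searched, so no contrast in level is drawn from these letters.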

How the data were processed

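Total RNA was sequenced from 2 libraries of 1 group. Per the file headers, the authors deposited expected counts (RSEM columns) and estimated counts (kallisto columns), both with reads divided by a model among the transcripts they match, and TPM, in which abundance is divided by effective length and spike-ins count toward the total. The deposited percent of each gene's abundance on a transcript was used as given. Tool names and versions: not given in the sources used here. The words RSEM-format and kallisto-format refer to the columns. The build was mm10 with GENCODE M21, per the deposited text files; no allele-specific values were used.

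Rows that name no gene held 1.38e-05% and 5.00e-06% of counts and were dropped. Spike-ins (0.7198% and 0.7982%) served for scaling alone. RSEM-format TPM was the main measure of level. Expected counts were rounded, scaled by TMM in edgeR 4.0.16 (R 4.3.3) and compared between replicates as log2 CPM after adding a prior of 0.5 counts. A gene was called detected at 1 TPM in both libraries. Alternatives were the kallisto-format and posterior mean values, DESeq2 1.42.0 size factors, library and spike-in totals, counts without length and TPM rescaled to nuclear protein coding genes. Pseudocounts, thresholds, each library alone and coding transcripts alone were also used. Tables were joined with Python 3.11.15 and pandas 2.3.3. Named were all 8 members, their transcripts with at least 5% of gene TPM, and of each list the leading 3 genes, those at 0 counts and those past 2-fold, with Ttn and Myh4 as partners. Other genes were named after their values were seen. The families and lists were chosen with earlier results of these data known, although the matching of members uses symbols alone. The ratio calculation was tested on simulated data. Intervals and the limit of 3 counts cover counting error only.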

Additional observations from a re-analysis of the deposited data

How the results depend on the processing

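Leaving out 1 of 2 libraries always moves a mean by less than 1 SD, so those 104 values say nothing of stability. Of 229 other recomputed values, 138 stayed within 1 SD of the libraries (replicate ratios within their counting interval, counts within 1.5 times), 90 moved further and 1 reversed: the log2 ratio of Myom2 over Myom1 was 0.13 with coding transcripts alone. That ratio was -0.042 with kallisto-format TPM and -0.016 with expected counts, which are not divided by length. The share of Myom1 in its family was 49.27%, 48.66% and 46.37% with kallisto-format TPM, expected counts and coding transcripts. Per 100 TPM of heavy chain, the binding proteins were at 13.39 and the myomesins at 5.941 with kallisto-format TPM. The myomesins were at 5.684 with coding transcripts. With expected counts, per 100 counts of heavy chain, the binding proteins were at 8.289 and the myomesins at 5.187. Expected counts moved Mybph over Mybpc2 to -4.19 and Myom3 over Myom1 to -3.92, and coding transcripts moved the latter to -4.02. The number of members past 2-fold between replicates was 0 with spike-in totals, where 13 of all 11760 genes were higher and 273 lower. It was 2 with the limit at 1.5-fold (Mybph and Mybpc2) and 3 with no minimum count. The last count adds Mybpc3, at 10 and 4 counts, and Mybphl, at 0 and 1, both near the limit of counting. The share of all genes was not computed under those 2 settings. With kallisto-format TPM, inclusion was 97.98% for the 43-base and 73.84% for the 42-base exon of Mybpc1, and 3.714%, 19.92% and 80.08% for the 294-base exon, exon A and exon B of Myom1. With coding transcripts, the 43-base and 59-base exons were at 97.88% and 29.1%, and with posterior mean TPM the former was at 86.92%. Shifts with expected counts include the change of unit. Beyond that, the cause of these shifts was not tested. Mybphl over Mybph has no alternative value, since Mybphl was at 0 counts in replicate 1. No paired analysis was possible because the labels give 1 group. Depth limits Mybpc3 and Mybphl alone, and 2 libraries limit every SD.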
